A study of Homo sapiens with 24 samples.

Results

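The transcripts described here are the genes with a symbol made of LINC and a number, the name given to long non-coding RNAs that were annotated as lying between other genes. A symbol was taken as a member when at least 10 reads were counted on the strand of the gene in any of the 24 libraries. Of 876 such symbols in the files, 101 met this rule, 203 had between 1 and 9 counts at most, and 572 had none in any library. The members are therefore 101 of the 12238 genes of the series that reached 10 counts. RNA came from HepG2 cells, a human liver cancer line, in 8 groups of 3 libraries each. Cells without interferon received DMSO, the solvent control, or 50 nM ABBV-075, 50 nM ABBV-744 or 500 nM ABBV-744, and the other 4 groups were IFNg alone, IFNg + ABBV-075 50 nM, IFNg + ABBV-744 50 nM and IFNg + ABBV-744 500 nM. The study's methods give 12 h for ABBV-075. The same methods list DMSO with treatments of 24 h, so ABBV-075 and its control may differ in time as well as in agent, and these cannot be told apart. Times for the ABBV-744 and IFNg groups and the IFNg dose were not stated in the sources used here. The methods describe DMSO and ABBV-075 samples as independent triplicates, and for the other groups nothing states whether the libraries came from separate cultures, so that their p-values measure the spread between these libraries, which may be technical.

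Long non-coding RNAs are transcribed by RNA polymerase II, are often spliced, and are usually present at lower levels and in fewer cell types than messenger RNAs. Some act on the gene beside them and others act elsewhere in the nucleus or in the cytoplasm, while for most no role has been established. BET proteins read acetylated histones and help RNA polymerase II to leave the promoter. ABBV-075 blocks both bromodomains of these proteins, whereas ABBV-744 prefers the bromodomain nearer the C terminus. IFNg is a cytokine that induces genes of antigen presentation and antiviral defence.

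The rule selected on read counts over all 8 groups, without regard to any difference between them. It still favours genes that are high somewhere. Of the 101 members, 56 reached 10 counts in all 8 groups and 12 in 1 group only, and 34 had at least 10 counts in all 24 libraries. Just inside the rule, LINC01144, LINC00920 and LINC00511 had a highest count of 10, and just outside it LINC01091, LINC01315 and LINC01465 had a highest count of 9. Between DMSO and ABBV-075, 17 members reached 10 counts in DMSO alone and 10 members in ABBV-075 alone. LINC00176, LINC00261 and LINC01146 were taken as leading members with results of these data known.

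The word intergenic did not hold for all members. In GENCODE release 44, 94 members had a position, 71 under their own symbol and 23 under a newer one. Of these, 84 were annotated as lncRNA and 10 as something else. LINC00176 is now C20orf204, LINC00493 is SMIM26, LINC00998 is SMIM30, LINC00116 is MTLN and LINC00094 is BRD3OS, all listed as protein-coding. In 22 members the gene overlapped a protein-coding gene, in 33 it overlapped a gene on the same strand, and in 53 it overlapped a gene on the opposite strand. The nearest start site of a protein-coding gene lay within 5000 bp for 24 members and within 50000 bp for 55, with a median distance of 37573.5 bp. Reads followed the annotated strand in most members, with a median of 99.1% of stranded reads on the strand of the gene, but 22 members were under 90% and LINC00242, LINC00476, LINC00667 and LINC00936 were under 50%.

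The promoters of 5 of the members that were lower with ABBV-075 are shown. RefSeq sequences of GRCh38.p14, 250 bases before and 50 after the start site, were found for 80 of the 101 members. They are written 5′ to 3′ on the strand of the gene, in lower case, with every match to 6 short motifs on either strand in capitals. The motifs are the TATA box (TATAAA), the CCAAT box (CCAAT), the E-box (CACGTG), a forkhead site (TGTTTAC), part of an HNF1 site (GTTAAT) and the gamma-activated site (GAS, TTCNNNGAA). LINC00261 is from chr20:22578593-22578892 on the minus strand, LINC01270 from chr20:50292470-50292769 on the plus strand, LINC01101 from chr2:120466300-120466599 on the minus strand, LINC01348 from chr1:235069769-235070068 on the minus strand, and LINC00176, as C20orf204, from chr20:64035932-64036231 on the plus strand.
LINC00261: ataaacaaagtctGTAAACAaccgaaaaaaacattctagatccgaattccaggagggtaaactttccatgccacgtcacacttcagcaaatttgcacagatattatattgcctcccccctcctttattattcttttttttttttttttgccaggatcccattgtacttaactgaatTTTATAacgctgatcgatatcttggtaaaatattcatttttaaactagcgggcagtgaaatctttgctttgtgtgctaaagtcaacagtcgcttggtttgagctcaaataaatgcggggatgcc
LINC01270: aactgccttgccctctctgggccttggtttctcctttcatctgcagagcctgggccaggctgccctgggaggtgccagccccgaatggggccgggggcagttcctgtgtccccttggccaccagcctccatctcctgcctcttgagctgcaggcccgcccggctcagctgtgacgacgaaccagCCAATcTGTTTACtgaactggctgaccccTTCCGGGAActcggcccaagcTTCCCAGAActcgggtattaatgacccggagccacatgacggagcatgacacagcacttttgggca
LINC01101: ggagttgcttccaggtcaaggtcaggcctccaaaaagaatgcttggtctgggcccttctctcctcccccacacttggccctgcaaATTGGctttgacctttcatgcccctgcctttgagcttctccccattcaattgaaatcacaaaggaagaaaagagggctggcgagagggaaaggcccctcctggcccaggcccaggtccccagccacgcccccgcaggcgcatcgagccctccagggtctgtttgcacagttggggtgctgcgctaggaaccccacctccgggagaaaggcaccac
LINC01348: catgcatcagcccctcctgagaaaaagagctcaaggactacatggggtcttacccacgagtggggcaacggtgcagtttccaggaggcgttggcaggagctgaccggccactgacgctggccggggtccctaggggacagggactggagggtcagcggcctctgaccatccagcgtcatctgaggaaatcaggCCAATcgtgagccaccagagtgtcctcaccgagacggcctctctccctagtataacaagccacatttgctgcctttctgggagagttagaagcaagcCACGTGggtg
LINC00176: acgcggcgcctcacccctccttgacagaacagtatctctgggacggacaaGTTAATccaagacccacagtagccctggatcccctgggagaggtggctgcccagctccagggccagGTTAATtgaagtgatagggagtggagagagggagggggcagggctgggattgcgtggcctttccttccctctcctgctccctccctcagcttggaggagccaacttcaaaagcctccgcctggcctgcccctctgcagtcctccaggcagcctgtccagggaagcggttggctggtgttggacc

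The 5 windows held different motifs. Windows were also found for LINC00668 and LINC00941, which passed the thresholds downward with ABBV-075. They are not printed, and neither held a match to any of these motifs. In LINC00261 a forkhead match lay on the opposite strand with its first base at -237 from the start site, and a TATA match on the opposite strand at -74. In LINC01270 a CCAAT match at -66 was followed by a forkhead match at -60 and by GAS matches at -37 and -16. LINC01101 held a CCAAT match on the opposite strand at -165, LINC01348 a CCAAT match at -57 and an E-box match at 41, and LINC00176 HNF1 matches at -200 and -134. The CCAAT and forkhead matches of LINC01270 did not overlap. Among 34943 promoters of the same length, the TATA box was found in 11.6%, the CCAAT box in 34.6%, the E-box in 7.23%, the forkhead site in 3.42%, the HNF1 motif in 6.9% and the GAS site in 7.66%. Among the 80 member promoters the shares were 10%, 47.5%, 10%, 5%, 8.75% and 15%, in the same order. The RefSeq and GENCODE start sites were at the same base for LINC00261, 11 bp apart for LINC01270 and 131 bp apart for LINC01101, but 4402 bp apart for LINC01348 and 1838 bp apart for LINC00176, where the window may not be the promoter in use. A match is a match of letters only.

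Between 2978982 and 4304103 reads per library were counted on genes, and the members together received 3300 to 5057 of them, or 0.0939% to 0.124%. Levels are given as CPM, the read count scaled to the size of the library and adjusted by trimmed means. LINC00657 alone made up 33.4% and LINC00176 9.21% of the summed mean CPM. The spread between replicates followed the depth. Its median coefficient of variation was 14.2% for 23 members with a mean of at least 30 counts, 22.4% for 39 members with 10 to 30 counts and 38.6% for 39 members with fewer than 10. The labels were checked with genes outside the list. HEXIM1, which rises when BET proteins are blocked, had a mean of 53.9 CPM in DMSO and 145 CPM with ABBV-075, but 65.1 CPM with ABBV-744 at 50 nM and 89.5 CPM at 500 nM. TAP1, a peptide transporter gene induced by IFNg, had group means of 34.8 to 67.5 CPM without IFNg and 465 to 702 CPM with it. The summed CPM of 10 hepatocyte markers was 21838 to 27969, and of 8 markers of other cell types it was 21 to 49.9. PTPRC, COL1A2 and VIM were at 0 in every library, and CD68 and ACTA2 held most of that sum.

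The libraries also differed in a trend with base composition. For each library the mean log2 CPM of the 25% of genes lowest in GC was compared with that of the 25% highest, each gene relative to its mean over all libraries. The difference was -0.32 to -0.09 in DMSO, -1.05 to -0.51 with ABBV-744 at 50 nM and -0.83 to -0.24 at 500 nM, and -0.56 to -0.16 with IFNg. It was 0.13 to 0.62 with IFNg + ABBV-075, 0.64 to 0.70 with IFNg + ABBV-744 50 nM and 0.24 to 0.61 with IFNg + ABBV-744 500 nM. With ABBV-075 alone, replicates 1 and 2 were at 0.72 and 0.40 and replicate 3 was at -0.18, beside DMSO. A correction for GC content was therefore added after the data were seen, and its values are given beside the main calls. Whether this trend comes from the treatments or from the preparation of the libraries was not tested.

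The highest member was LINC00657, now NORAD, a cytoplasmic RNA that binds Pumilio proteins, with a mean of 366.7 CPM over the 24 libraries. LINC00176 followed with 101 CPM, then LINC00674 with 42.4, LINC00493 (SMIM26, which encodes a mitochondrial microprotein) with 38.9 and LINC01000 with 30.8. LINC00261 had a mean of 14.4 CPM, LINC01348 of 7 CPM, LINC01270 of 4.25 CPM and LINC01146 of 1.98 CPM. Per kb of merged exon, LINC00657 had 67.9 CPM per kb, LINC00493 35.4, LINC00176 18.4 and LINC01124 9.06. LINC00674 came out at 265 CPM per kb, but only 160 bp of exon are annotated for it, in an entry that GENCODE calls a pseudogene, and that value cannot be set beside the others. LINC01000 had no position, and so no value per kb.

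**Figure D1:**
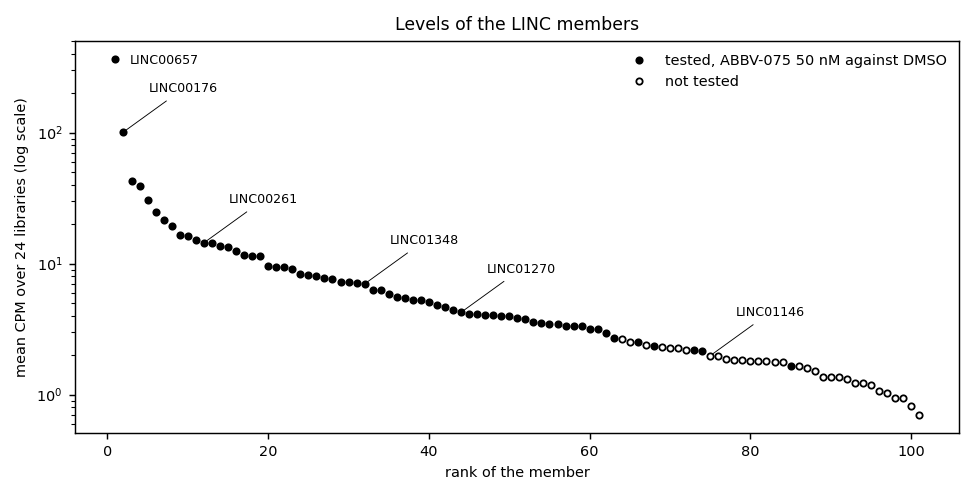
Mean CPM over 24 libraries (log scale) of the 101 members in order of their level, with filled points for the 68 members that had enough counts for the test of ABBV-075 50 nM against DMSO. LINC00657 at 366.7 CPM and LINC00176 at 101 CPM stand above the other members, and most of the members that were not tested lie at the low end, with LINC01146 at 1.98 CPM.

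The question for ABBV-075 was which of these transcripts respond to a BET inhibitor. With ABBV-075, LINC00176, LINC00941, LINC00668, LINC01348, LINC01270 and LINC01101 fell and LINC00467 and LINC01061 rose past both thresholds set here. Genes were tested with edgeR's quasi-likelihood test, and a gene is said to have risen or fallen when its Benjamini-Hochberg adjusted p over all genes tested was at most 0.05. It passed the thresholds when its absolute log2 fold change was also at least 1.5. With ABBV-075 against DMSO, 68 of the 101 members had enough counts to be tested. Of these, 2 passed the thresholds upward and 6 downward, where 1.09% of all 11244 genes tested passed upward and 3.19% downward. The split was like that of all genes past the thresholds, of which 25.4% were higher. At the adjusted p alone, 7 members rose and 11 fell (10.3% and 16.2%), against 19.8% and 19.6% of all genes. Without ABBV-075 replicate 3, the library described above, 76 members were tested and 7 passed, of which 6 were among the 8 and the other was LINC01146. The median log2 fold change of the 68 members was -0.08 and that of all genes 0.03, and the one tested member at the detection floor leaves that median at -0.08 when set to its bound. Of 288 other lncRNA genes tested, 6 passed upward and 11 downward, and of 10528 protein-coding genes 111 and 336. The 101 members split into 18 with all ABBV-075 libraries above all DMSO libraries, 26 with all below and 57 that overlapped. Among all 12238 genes that reached 10 counts, 23.2% lay above and 25% below.

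LINC00176 lost most of its reads. This gene is transcribed from chr20:64034344-64039962 on the plus strand, and has been linked to MYC in liver cancer cells. Its DMSO libraries had 164, 137 and 155 CPM and its ABBV-075 libraries 21.7, 18.4 and 28 CPM. The groups did not overlap, and the highest treated library was far below the lowest control. The log2 fold change was -2.77 (SE 0.16, adjusted p = 3.79e-07 by edgeR), and -2.63 with the GC correction. In counts, 611, 617 and 651 reads in DMSO stood against 90, 64 and 93 with ABBV-075.

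LINC01348, from chr1:235064927-235074220 on the minus strand, is a transcript without an established role. It had 12.3, 12.2 and 12.9 CPM in DMSO and 1.69, 2.58 and 5.71 CPM with ABBV-075, and the groups did not overlap. Replicate 3 of ABBV-075, the library whose GC trend was like that of DMSO, was the highest of the treated libraries. The log2 fold change was -1.96 (SE 0.33, adjusted p = 0.00081 by edgeR), and it was -2.58 without that library and -1.81 with the GC correction.

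LINC01270 and LINC01101 fell from lower levels. LINC01270, from chr20:50292709-50315488 on the plus strand, had 3.75, 5.33 and 3.82 CPM in DMSO and 1.69, 0.287 and 2.11 CPM with ABBV-075 (log2 fold change -1.66, SE 0.45, adjusted p = 0.0122 by edgeR). Its lowest value came from 1 read in replicate 2, and without that library the log2 fold change was -1.21 (adjusted p = 0.0487). Without DMSO replicate 2 it was -1.47 (adjusted p = 0.0579), past neither threshold. Corrected for GC it was -1.52. In the unstranded counts it had too few counts for the test, with 156 reads over the 24 libraries against 366 on its own strand. LINC01101, from chr2:120464335-120466218 on the minus strand, is a single exon that GENCODE lists as awaiting experimental evidence. It had 5.36, 5.77 and 4.05 CPM in DMSO and 1.69, 2.3 and 0.902 CPM with ABBV-075 (log2 fold change -1.63, SE 0.37, adjusted p = 0.00424). It stayed below 0 but short of the size threshold with the GC correction, at -1.46, and without ABBV-075 replicate 3, at -1.38. Both LINC01270 and LINC01101 reached 10 counts in DMSO and not with ABBV-075, so the rule itself favours this order for them.

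LINC00668 and LINC00941 were close to the limit of detection with ABBV-075. LINC00668, from chr18:6919496-6929966 on the minus strand, had 14, 17 and 16 counts in DMSO and 4, 3 and 3 with ABBV-075 (log2 fold change -2.04, SE 0.38, adjusted p = 0.00139, or -1.97 corrected for GC). LINC00941, from chr12:30755167-30802602 on the plus strand, had 11, 15 and 13 counts in DMSO and 2 in each ABBV-075 library. With 3 counts or fewer in every library this group is at the floor, so LINC00941 was at least 3.77-fold lower with ABBV-075, and its fitted log2 fold change of -2.47 (SE 0.44, adjusted p = 0.00108), or -2.40 corrected for GC, is no bound. LINC00941 reached 10 counts only in DMSO and with IFNg alone, so the rule itself favours this order. LINC00668 reached 10 counts in DMSO and not with ABBV-075, so the same holds for it. In bulk RNA, fewer cells with a transcript and less of it per cell cannot be told apart.

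LINC00261 fell less. This RNA is transcribed from chr20:22547663-22578642 on the minus strand, beside the gene of the endoderm factor FOXA2, and is found in liver and other endodermal tissues. Its DMSO libraries had 20.9, 22.9 and 17.4 CPM and its ABBV-075 libraries 7.72, 9.19 and 8.12 CPM, without overlap. The log2 fold change was -1.31 (SE 0.20, adjusted p = 0.000399 by edgeR), short of the size threshold, and -1.42 with the GC correction.

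LINC01146, now HISLA, an RNA linked to the stability of HIF-1α, comes from chr14:88024519-88098025 on the plus strand. It had 13, 9 and 15 counts in DMSO and 1, 0 and 1 with ABBV-075, too few to enter the test. Against the floor of 3 counts per library it was at least 3.64-fold lower with ABBV-075. It reached 10 counts in DMSO and in no group with ABBV-075, so the rule favours this order. Without the filter on low counts LINC01146 entered the test, and the fit gave an adjusted p of 3.52e-05 (edgeR). It also passed the thresholds in the fit of all 24 libraries and with some single libraries left out. LINC00242 and LINC00870, which the study names, were not tested either. The mean of LINC00242 was 2.66 ± 0.211 CPM for DMSO against 0.89 ± 0.303 CPM for ABBV-075 (SD, n = 3 each). It reached 10 counts in DMSO alone, so the rule itself favours this order. LINC00870 had 1.91 ± 0.528 CPM and 0.477 ± 0.369 CPM (SD, n = 3 each). It reached 10 counts only in DMSO and with ABBV-744 50 nM, so the same holds for it.

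**Figure D2:**
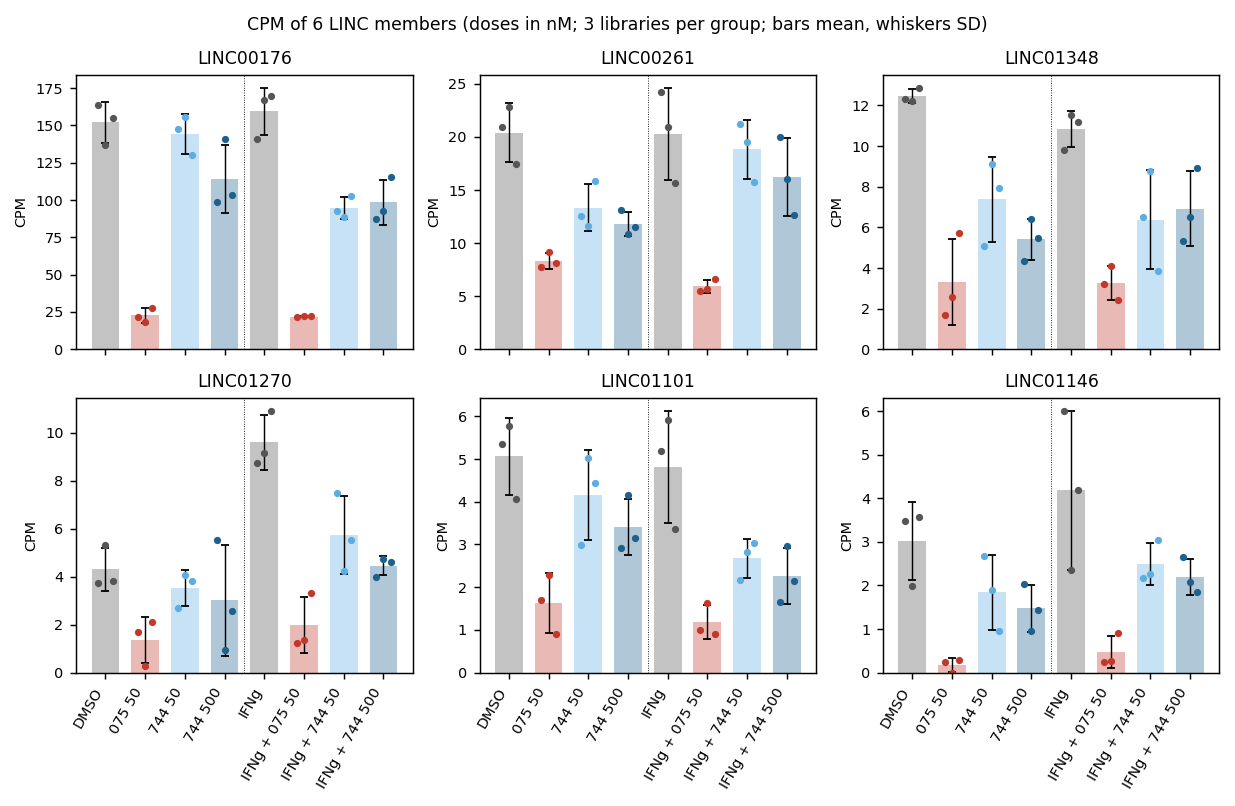
CPM of LINC00176, LINC00261, LINC01348, LINC01270, LINC01101 and LINC01146 in each of the 8 groups, with points for the 3 libraries, bars for their mean and whiskers for the SD. Group names on the axis give the inhibitor and its dose in nM. With ABBV-075 the libraries lie below those of the matching control in each panel (LINC00176 at 18.4 to 28 CPM against 137 to 164 CPM), and LINC01270 is highest with IFNg alone.

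Among the members that rose, LINC00467 and LINC01061 passed the thresholds. LINC00467, from chr1:211382736-211435570 on the plus strand, had 1.61, 2.44 and 0.238 CPM in DMSO and 7.24, 3.45 and 4.81 CPM with ABBV-075 (log2 fold change 1.82, SE 0.50, adjusted p = 0.0126). DMSO replicate 3 held a single read, and without it the log2 fold change was 1.32 (adjusted p = 0.0467). Without ABBV-075 replicate 1 it was 1.48, and corrected for GC 1.68. LINC01061, which had no position in the annotation, had 1.07, 1.33 and 0.954 CPM in DMSO and 2.9, 3.45 and 5.11 CPM with ABBV-075 (log2 fold change 1.69, SE 0.40, adjusted p = 0.00599). Without ABBV-075 replicate 3 it was 1.43, and with reads of both strands counted together it was 1.40. The GC correction left it at 1.69. These are changes between a few reads and some 10 to 30 reads per library. LINC01061 reached 10 counts with ABBV-075 and not in DMSO, so the rule itself favours this order.

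Members at higher levels rose by less. LINC01004, an antisense neighbour of the histone methyltransferase gene KMT2E, had 14.2, 17.5 and 15.7 CPM in DMSO and 34.5, 31.6 and 19.5 CPM with ABBV-075 (log2 fold change 0.83, SE 0.21, adjusted p = 0.00871). LINC00657 had 313, 347 and 349 CPM in DMSO and 527, 475 and 364 CPM with ABBV-075 (log2 fold change 0.42, SE 0.13, adjusted p = 0.0253). In both, ABBV-075 replicate 3 was the lowest treated library. The GC correction lowered the log2 fold changes to 0.46 for LINC01004 and 0.23 for LINC00657. LINC00674, LINC00493 and LINC01000 overlapped between the groups, at log2 fold changes of -0.15, -0.22 and 0.34, and none of the 3 passed the test.

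Because the controls of cells with IFNg are other libraries, the effect of ABBV-075 could be measured again. With IFNg + ABBV-075 against IFNg alone, 64 members were tested, of which 0 passed the thresholds upward and 5 downward. Of all 11187 genes tested 2.41% passed upward and 3.75% downward. At the adjusted p alone 11 members rose and 18 fell (17.2% and 28.1%), against 28.2% and 28.4% of all genes, and the median log2 fold change was -0.25 for members and -0.00 over all genes. The 5 were LINC00176, LINC01270, LINC01101, LINC00261 and LINC01348. Of the 6 members lowered without IFNg and the 5 lowered with it, 4 were shared, which is 66.7% of the former and 80% of the latter. LINC00668 and LINC00941 had too few counts for the test with IFNg.

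LINC00176 had 141, 167 and 170 CPM with IFNg and 21.4, 22.3 and 22 CPM with IFNg + ABBV-075, again without overlap (log2 fold change -2.87, SE 0.12, adjusted p = 1.13e-20 by edgeR). LINC00261 had 24.3, 21 and 15.7 CPM with IFNg and 5.47, 5.71 and 6.63 CPM after ABBV-075 was added. Its log2 fold change was -1.78 (SE 0.23, adjusted p = 2.72e-08), now past the size threshold, and -1.90 corrected for GC. LINC01348 had 9.82, 11.5 and 11.2 CPM with IFNg and 3.23, 4.08 and 2.41 CPM with IFNg + ABBV-075 (log2 fold change -1.73, SE 0.285, adjusted p = 2.79e-06). Corrected for GC it fell short of the size threshold, at -1.45.

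LINC01101 had 5.18, 5.9 and 3.36 CPM with IFNg and 0.994, 1.63 and 0.904 CPM with IFNg + ABBV-075 (log2 fold change -2.001, SE 0.43, adjusted p = 0.000133, or -1.78 corrected for GC). LINC01146 had 22, 8 and 15 counts with IFNg and 1, 1 and 3 with IFNg + ABBV-075. It was not tested and was at least 5.09-fold lower. LINC00941 had 7, 13 and 10 counts with IFNg and 2 in each library with IFNg + ABBV-075, at least 3.47-fold lower. LINC01101, LINC01146 and LINC00941 all reached 10 counts with IFNg and not with IFNg + ABBV-075, so the rule favours this order for them. LINC00467 and LINC01061 gave no call with IFNg in the main fit. LINC00467 had a log2 fold change of 0.62 (SE 0.41, adjusted p = 0.201), with overlapping groups, and LINC01061 was not tested, at means of 0.946 ± 0.203 CPM with IFNg and 2.73 ± 1.41 CPM with IFNg + ABBV-075 (SD, n = 3 each). Without the filter on low counts LINC01061 entered the test and passed the thresholds upward. It reached 10 counts with IFNg + ABBV-075 and not with IFNg, so the rule favours this order.

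LINC01004 rose with ABBV-075 also in the presence of IFNg (log2 fold change 0.98, SE 0.19, adjusted p = 5.03e-05), as did LINC00657 (0.45, SE 0.09, adjusted p = 4.27e-05). Corrected for GC these were 0.48 and 0.22. Among members outside the named rule, chosen after their values were seen, LINC00152, now CYTOR, an RNA raised in many tumours, fell by 1.01 on the log2 scale (SE 0.23, adjusted p = 0.000232), and by 1.22 with the GC correction. LINC00888 rose (1.03, SE 0.25, adjusted p = 0.000589), with 1.02 after the correction.

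Whether ABBV-075 acted differently once IFNg was present was tested by an interaction term. None of the 73 members tested passed the thresholds, with 0 of 11530 genes passing upward (0%) and 0.0173% downward. At an unadjusted p under 0.05 there were 3 members (4.11%, against 6.72% of all genes), and DESeq2 also called 0. For LINC00261, which passed the size threshold with IFNg but not without it, the difference was not past the test. This does not show that the effects were equal.

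**Figure D3:**
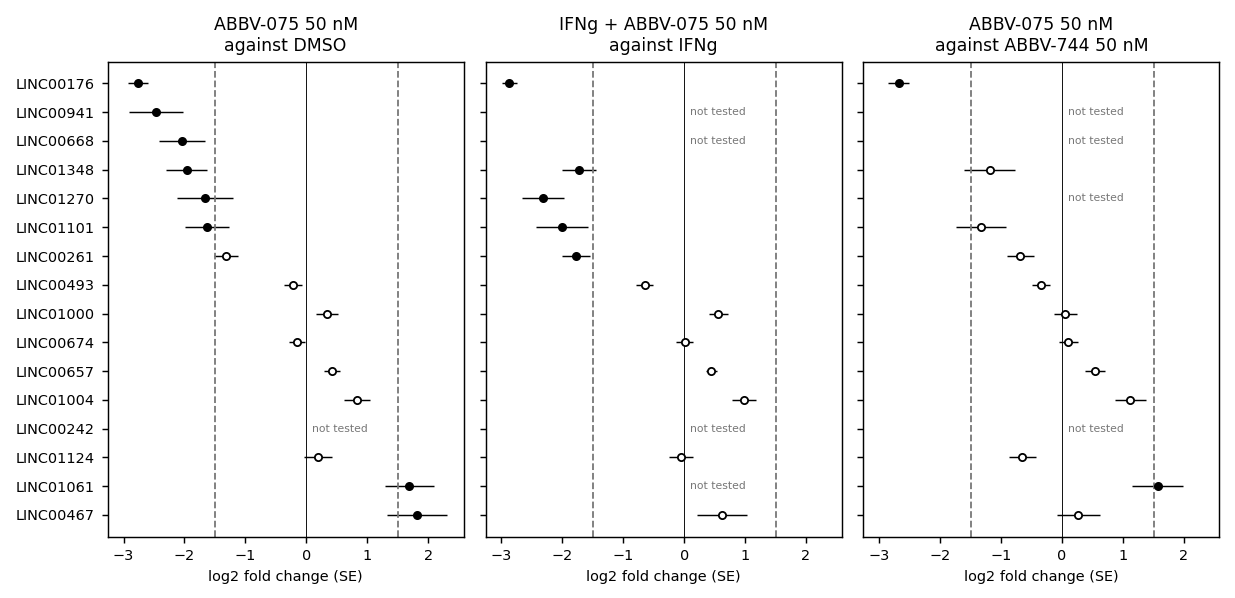
Log2 fold changes (points) with their SE (bars) of 16 named members in ABBV-075 50 nM against DMSO, IFNg + ABBV-075 50 nM against IFNg, and ABBV-075 50 nM against ABBV-744 50 nM. Filled points passed both thresholds, and dashed lines mark an absolute log2 fold change of 1.5. LINC00176 is the lowest in each panel, at -2.77, -2.87 and -2.68.

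Few members passed the thresholds with ABBV-744. At 50 nM against DMSO, 65 members were tested, of which 1 passed the thresholds upward and 0 downward, with 0.09% of 11116 genes upward and 0.189% downward. At 500 nM, 67 members were tested and 0 passed in either direction, with 0.027% of 11124 genes upward and 0.315% downward. At an unadjusted p under 0.05 there were 9 and 15 members (13.8% and 22.4%), against 33.6% and 29.2% of all genes, and DESeq2 called 0 at either dose. The comparisons of both inhibitors share the DMSO libraries. The member past the thresholds was LINC00467, with 4.47, 5.34 and 3.18 CPM at 50 nM (log2 fold change 1.57, SE 0.46, adjusted p = 0.0196, or 1.75 corrected for GC). It again rested on DMSO replicate 3, without which it was 1.08 (adjusted p = 0.126), and without ABBV-744 replicate 2 it was 1.40.

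LINC01348 and LINC00261 fell at both doses of ABBV-744. LINC01348 had 5.07, 9.11 and 7.94 CPM at 50 nM (log2 fold change -0.75, SE 0.24, adjusted p = 0.0285) and 4.36, 6.41 and 5.46 CPM at 500 nM (-1.20, SE 0.25, adjusted p = 0.00102). All 6 libraries lay below the DMSO libraries, and corrected for GC the values were -0.91 and -1.31. LINC00261 had 12.5, 11.6 and 15.9 CPM at 50 nM (-0.60, SE 0.19, adjusted p = 0.0274) and 13.1, 10.9 and 11.5 CPM at 500 nM (-0.78, SE 0.19, adjusted p = 0.00504), also without overlap. After correction for GC, LINC00261 at 50 nM was at -0.44 and lost its call, whereas at 500 nM it was -0.69 and kept it.

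LINC00176 was at 148, 156 and 130 CPM with 50 nM ABBV-744, overlapping DMSO (log2 fold change -0.06, SE 0.10, adjusted p = 0.724), although with the GC correction it was lower by -0.30 (adjusted p = 0.0118). At 500 nM it had 98.9, 141 and 103 CPM (-0.41, SE 0.11, adjusted p = 0.0134), where 1 library overlapped DMSO. LINC01124, which starts beside SP5, rose at both doses. It had 15, 16.2 and 16.5 CPM in DMSO, 28.9, 31.1 and 26.4 CPM at 50 nM (0.87, SE 0.16, adjusted p = 0.000735) and 21.2, 30.4 and 22.1 CPM at 500 nM (0.63, SE 0.18, adjusted p = 0.0145). Corrected for GC these were 0.63 and 0.48 (adjusted p = 0.00541 and 0.0279). Only 78.6% of its stranded reads lay on its own strand.

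Between the doses, 500 nM against 50 nM, 63 members were tested and 0 passed, as for all 10967 genes (0% upward and 0% downward). A single member had an unadjusted p under 0.05 (1.59%, against 5.77% of all genes), and DESeq2 called 0. For LINC00176 the log2 difference was -0.35, with an interval of 2 SE on each side from -0.61 to -0.08, and an adjusted p of 0.775. For LINC01348 it was -0.45, from -1.07 to 0.17.

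ABBV-075 and ABBV-744 are different BET inhibitors that can be set side by side at one matched dose, 50 nM, without IFNg, which is the only pair compared here. A time was not given for ABBV-744, so that the times may differ. Of 62 members tested, 1 passed the thresholds upward and 1 downward, with 2.2% of 10992 genes upward and 1.63% downward. At the adjusted p alone 7 were higher and 15 lower with ABBV-075 (11.3% and 24.2%), against 21.4% and 19.4% of all genes. LINC00176 was lower with ABBV-075 by 2.68 on the log2 scale (log2 difference -2.68, SE 0.17, adjusted p = 1.64e-05), with an interval of 2 SE from -3.02 to -2.34, and the GC-corrected difference was -2.33. LINC01061 was higher (1.57, SE 0.41, adjusted p = 0.0127). Without ABBV-075 replicate 3, 4 members passed downward (LINC00176, LINC00668, LINC01270 and LINC01348) and 0 upward. Of these, LINC00668 and LINC01270 reached 10 counts with ABBV-744 50 nM and not with ABBV-075, so the rule favours this order for them. LINC00261 was lower by a smaller amount (-0.69, SE 0.22, adjusted p = 0.0298), with no overlap between the groups.

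LINC01101 (-1.32, adjusted p = 0.0255) and LINC01348 (-1.19, adjusted p = 0.0412) were also lower with ABBV-075, but with the GC correction their adjusted p values were 0.0911 and 0.0704. LINC01101 reached 10 counts with ABBV-744 50 nM and not with ABBV-075, so the rule favours this order for it. For LINC00467, which was higher than DMSO with each compound, no difference between the compounds was detected (0.26, interval of 2 SE from -0.44 to 0.96). For LINC00674 it was 0.10, from -0.21 to 0.41. LINC01004 and LINC00657 were higher with ABBV-075 (1.12 and 0.54), and neither kept its call with the GC correction, at 0.46 and 0.15.

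With IFNg alone a single member passed the test, and none passed both thresholds. Of 65 tested, 0 passed the thresholds upward or downward, where 0.82% of 11217 genes passed upward and 0.0267% downward. At an unadjusted p under 0.05 there were 6 members (9.23%, against 14.1% of all genes), and DESeq2 called 0. By the adjusted p alone 2.76% of all genes rose and 0.695% fell. The only one of the 65 that rose by the adjusted p was LINC01270, from 3.75, 5.33 and 3.82 CPM in DMSO to 8.73, 9.15 and 10.9 CPM with IFNg. The groups did not overlap (log2 fold change 1.14, SE 0.27, adjusted p = 0.00631 by edgeR, or 1.09 corrected for GC). Its window printed above held 2 GAS matches, and GAS matches were found in 15% of the member promoters. Whether they have a part in the rise was not tested. The adjusted p was 0.0674 with all 24 libraries in the fit, 0.0552 without DMSO replicate 3 and 0.0523 without IFNg replicate 3. In the unstranded counts the log2 fold change was 0.72 (adjusted p = 0.404). Those counts held 156 reads of LINC01270 over the 24 libraries, against 366 on its own strand and 3 on the opposite strand. LINC01271 overlaps the gene on the other strand.

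With the inhibitors added to IFNg, LINC01270 was lower in every case. It had 1.24, 1.36 and 3.32 CPM with IFNg + ABBV-075 (log2 fold change against IFNg -2.31, SE 0.34, adjusted p = 3.79e-07), 7.47, 4.24 and 5.53 CPM with IFNg + ABBV-744 50 nM (-0.70, SE 0.26, adjusted p = 0.0224) and 4, 4.75 and 4.61 CPM with IFNg + ABBV-744 500 nM (-1.11, SE 0.27, adjusted p = 0.0013). None of these groups overlapped IFNg alone. With the GC correction the values were -2.05, -0.44 and -0.84, and the one at 50 nM of ABBV-744 lost its call. These comparisons share the IFNg libraries.

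With IFNg + ABBV-744 50 nM against IFNg, 65 members were tested and 0 passed the thresholds, with 1.94% of 11150 genes upward and 0.368% downward. With IFNg + ABBV-744 500 nM, 64 were tested and 0 passed, with 1.29% of 11091 genes upward and 0.82% downward. Unadjusted p values under 0.05 were found for 22 and 24 members (33.8% and 37.5%), against 57% and 52.1% of all genes, and DESeq2 called 0 in either. By the adjusted p alone, 12 rose and 9 fell at 50 nM (18.5% and 13.8%, against 27.4% and 24.3% of all genes), and 10 rose and 11 fell at 500 nM (15.6% and 17.2%, against 22.9% and 22.8%). Of these 21 and 21 members, 8 and 9 kept direction and call with the GC correction, where all genes past the thresholds went from 257 to 52 and from 234 to 84.

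LINC00176 kept its call in both. It had 92.8, 88.7 and 103 CPM with IFNg + ABBV-744 50 nM (log2 fold change -0.73, SE 0.09, adjusted p = 7.77e-08, or -0.41 with the GC correction) and 87.2, 92.8 and 116 CPM with IFNg + ABBV-744 500 nM (-0.70, SE 0.11, adjusted p = 4.33e-06, or -0.51). All 6 libraries lay below those of IFNg alone and above those with ABBV-075. LINC00261 overlapped IFNg alone at both doses (-0.09 and -0.35, adjusted p = 0.709 and 0.154), and passed the test at 500 nM only with the GC correction (-0.49, adjusted p = 0.0339). LINC01348 fell at both (-0.74 and -0.65), and neither call held with the GC correction.

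LINC00641, a transcript chosen after its values were seen, moved in opposite directions. It had 12.3, 14.9 and 16.7 CPM in DMSO and 8.05, 4.08 and 11.4 CPM with ABBV-744 50 nM, which was lower (log2 fold change -0.89, SE 0.25, adjusted p = 0.0158). With IFNg it had 12, 13.6 and 14.3 CPM, and with IFNg + ABBV-744 50 nM 19.5, 27.7 and 21.6 CPM, which was higher (0.80, SE 0.18, adjusted p = 0.000347). With the GC correction these values were -0.68 and 0.40, and neither kept its call (adjusted p = 0.0573 and 0.0828). The longest transcript of LINC00641 is 41.6% GC, those of LINC00657 and LINC01004 are 41.8% and 38.9%, and those of LINC00176 and LINC01124 are 62.3% and 60.6%.

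The same interaction was fitted for ABBV-744 after the data had been seen. At 50 nM 73 members were tested, with 1 past the thresholds upward (LINC00641) and 0 downward, where 5.8% of 11451 genes passed upward and 0.637% downward. At 500 nM 74 were tested, with 0 upward and 1 downward (LINC00857), where 2.82% of 11428 genes passed upward and 0.254% downward. With the GC correction LINC00641 was at 1.09 (adjusted p = 0.00734), short of the size threshold, and LINC00857 at -1.44 (adjusted p = 0.0683). DESeq2 called 1 member at 50 nM and 0 at 500 nM. Without ABBV-744 50 nM replicate 2, 0 members and 526 of all genes passed the thresholds at 50 nM. Without ABBV-744 500 nM replicate 2, LINC00857 no longer passed at 500 nM. By the adjusted p alone, 8 members were higher and 5 lower at 50 nM, against 25% and 26.5% of all genes, and 3 higher and 5 lower at 500 nM, against 18.5% and 15%. In the GC trend the ABBV-744 50 nM libraries lay below DMSO and those of 500 nM overlapped it, while the IFNg + ABBV-744 libraries lay above IFNg at both doses. The part of this trend in these differences was not tested beyond the correction, under which all genes past the thresholds went from 737 to 95 at 50 nM and from 351 to 52 at 500 nM.

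**Figure D4:**
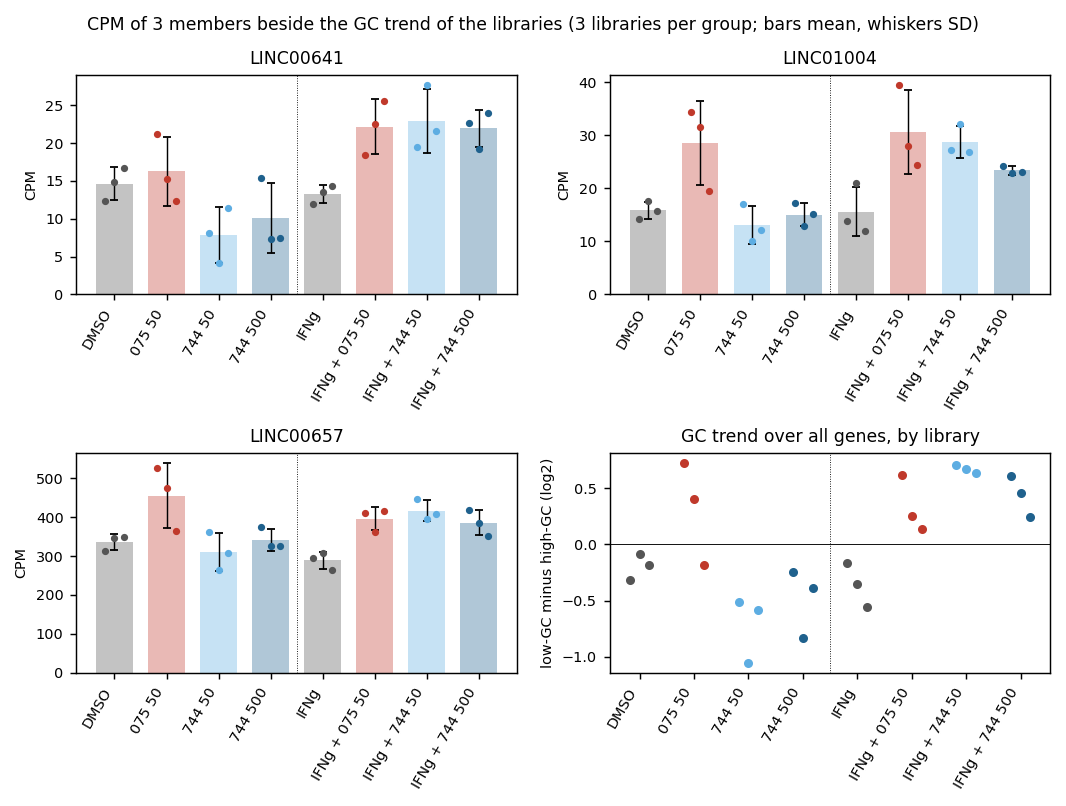
CPM of LINC00641, LINC01004 and LINC00657 by group (points for the 3 libraries, bars for the mean, whiskers for the SD) and, in the last panel, the log2 level of low-GC genes minus that of high-GC genes in each library. The IFNg + ABBV-744 50 nM libraries lie at 0.64 to 0.70 in the last panel and the ABBV-744 50 nM libraries at -1.05 to -0.51, and the 3 members are higher in the former than in the latter.

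The genes beside the lowered members were measured in the same fits. FOXA2, whose start site is 6813 bp from that of LINC00261, was at 13.2 ± 1.43 CPM for DMSO against 10.8 ± 0.67 CPM for ABBV-075 (SD, n = 3), and did not pass the test (log2 fold change -0.30, SE 0.20, adjusted p = 0.234). With IFNg + ABBV-075 it was at -0.42 (adjusted p = 0.0789). SOX18, 15295 bp from LINC00176, was at -0.46 (adjusted p = 0.119), and TOMM20, 54617 bp from LINC01348, at 0.28 (adjusted p = 0.0908). CEBPB, a liver transcription factor 101879 bp from LINC01270, did not pass with ABBV-075 (-0.13, adjusted p = 0.468) and rose with IFNg (0.51, SE 0.10, adjusted p = 0.00127).

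INHBB, which encodes an activin subunit, was an exception among these neighbours. Its start site is 120082 bp from that of LINC01101, and it passed the thresholds downward with ABBV-075 (log2 fold change -2.28, adjusted p = 0.00214), from 4.49 ± 1.07 CPM to 0.936 ± 0.684 CPM (SD, n = 3). IPO8, an importin gene 59298 bp from LINC00941, fell by 0.68 on the log2 scale (adjusted p = 0.0155). That distance is from the GENCODE start of LINC00941, and the RefSeq start lies 40514 bp away from it. CAPRIN2 overlaps LINC00941 on the opposite strand. GPR65, beside LINC01146, was at 0 in the groups of these comparisons, and TRAF5 and LAMA1, beside LINC00467 and LINC00668, were too low to test.

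Over the 8 group means, the genes with the pattern most like LINC00176 among 11675 genes were ASPSCR1, GATB and LAD1 (Pearson r of log2 CPM 0.99 for each). For LINC00261 they were DHX33, ENPP3 and LGALSL, and for LINC01146 they were NRP1, SULT2A1 and LIF, also at 0.99 each. All these values come from the same 24 libraries and share their depth and GC trend, and with 8 points and so many genes such values are a description only. In order of its group means, LINC00176 was lowest with IFNg + ABBV-075 (21.9 CPM) and ABBV-075 (22.7 CPM), which overlapped, and then came IFNg + ABBV-744 50 nM (94.8 CPM), IFNg + ABBV-744 500 nM (98.6 CPM) and ABBV-744 500 nM (114 CPM), whose libraries overlapped. ABBV-744 50 nM (144 CPM), DMSO (152 CPM) and IFNg (159 CPM) were highest and overlapped each other and 1 library of ABBV-744 500 nM.

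Of 23 LINC symbols named by the study, 10 were found and 7 met the rule. Besides those above, LINC01132 had a mean of 2.21 ± 0.786 CPM (SD, n = 3) for DMSO against 1.92 ± 0.191 CPM for ABBV-075, and its groups overlapped. LINC00910, LINC01484 and LINC01534 had highest counts of 2, 3 and 6 in any library, below the rule.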

How the data were processed

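Total RNA of HepG2 cells was made into 24 sequencing libraries. The study's methods name depletion of ribosomal RNA and a directional kit for DMSO and ABBV-075. Per the submitters' processing notes, CASAVA 1.8.2, Trimmomatic 0.33 and STAR 2.7.1 were used with hg38, and DESeq2 is named. The deposited values are raw read counts per gene symbol, made by the authors without normalization, in columns for both strands and for each strand. Libraries were deposited separately, and the gene annotation behind the counts was not given in the sources used here. Column 4, the strand of the gene, was used. Reads aligned to several places made up 56% to 69.4% of all reads and are not counted, so members with near-identical copies may be undercounted.

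Genes were filtered with filterByExpr, normalized with TMM and tested with glmQLFit and glmQLFTest in edgeR 4.0.16 (R 4.3.3) on the libraries of the groups compared, with p-values adjusted over all genes tested. The SE is the size of the log2 fold change divided by the square root of F. CPM used the TMM sizes of all 24 libraries, and log2 CPM a prior count of 2. The floor was 3 counts per library, for groups in which no library exceeded it, and covers counting error only. On simulated data for ABBV-075 against DMSO, 65 of 66 genes changed by a log2 of 2 and 0 of 10904 unchanged genes of 11101 were called. With a GC trend added to that simulation, 55 of 10856 unchanged genes were called, and 1 with the GC correction (11052 genes). The simulations used a single dispersion for all genes and changed genes of any depth. Recovery at the low counts of many members was therefore not measured.

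Positions came from GENCODE release 44. Named genes are the 3 leading members, members past the thresholds, the 5 highest by CPM and per kb, members the study names and those at the edge of the rule, with the nearest protein-coding genes of the first sets. The members and lists were chosen with earlier results of these data known. Alternatives were RLE normalization, DESeq2 1.42.0, no filter, a minimum of 10 counts throughout, a fit of all 24 libraries, a replicate block, unstranded counts and each library left out. The GC and length corrections (lowess, span 0.3, on the longest transcript) and the ABBV-744 interactions were chosen after seeing the data.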

Additional observations from a re-analysis of the deposited data

Results flagged for a closer look

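In the interaction at 50 nM, the effect of ABBV-744 differed with and without IFNg, by an adjusted p of at most 0.05 in edgeR's test of the difference, for 13 of the 73 members tested (17.8%), where 51.6% of all genes passed the same test. The difference of effects (log2, with IFNg minus without) was positive for LINC00641 (1.66), LINC00997 (1.21), LINC01296 (1.15), LINC01004 (1.14), LINC01021 (1.08), LINC00094 (0.89), LINC00998 (0.64) and LINC00657 (0.62). It was negative for LINC01604 (-1.46), LINC01124 (-1.12), LINC01089 (-0.82), LINC00176 (-0.70) and LINC00493 (-0.48). With the GC correction 3 of the 13 kept direction and call, namely LINC00641 (1.09), LINC00997 (1.35) and LINC00094 (1.33).

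At 500 nM 8 of the 74 members tested differed by the same test (10.8%), where 33.5% of all genes did. The difference was positive for LINC00641 (1.26), LINC01021 (1.10) and LINC00657 (0.39), and negative for LINC00857 (-1.74), LINC01481 (-1.49), LINC00526 (-0.89), LINC00152 (-0.85) and LINC00493 (-0.63). With the GC correction 3 of the 8 kept direction and call, namely LINC00641 (0.85), LINC01481 (-2.14) and LINC00152 (-1.21). Among them LINC01021 is PURPL, an RNA induced by p53, and LINC00998 encodes SMIM30.

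Reads on the strand opposite to the gene were not used in the main comparisons. With IFNg + ABBV-075 they were higher in CPM than in all DMSO libraries in 2 of the 4 members with most of their stranded reads there. For LINC00476 the opposite strand had 24 to 32 counts per library (mean 7.63 CPM) with IFNg + ABBV-075, against 18 to 28 (5.29 CPM) in DMSO. With IFNg alone it had 10 to 16 counts (3.48 CPM) and with ABBV-075 alone 13 to 36 (5.73 CPM). For LINC00936 it had 6 to 15 counts (mean 3.00 CPM) with IFNg + ABBV-075 and 4 to 5 counts (1.15 CPM) with IFNg + ABBV-744 50 nM, against 1 to 4 counts (0.624 CPM) in DMSO. With IFNg alone it had 1 to 4 counts (0.555 CPM) and with ABBV-075 alone 0 to 14 (1.7 CPM). LINC00667 went the other way, with 25 to 29 counts (6.685 CPM) in DMSO, 7 to 18 (2.82 CPM) with ABBV-075 and 7 to 11 (2.25 CPM) with IFNg + ABBV-075. With IFNg alone it had 14 to 19 (4.52 CPM). Annotated genes lie on these opposite strands, ERCC6L2 at LINC00476, ATP2B1 at LINC00936, and LINC00526 and ZBTB14 at LINC00667. The reads cannot be told apart from reads of those genes. They were not tested for a difference, and the share of all genes with such a change was not computed.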

How the results depend on the processing

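Without the filter on low counts 13 members passed the thresholds for ABBV-075 against DMSO, 12 for IFNg + ABBV-075 against IFNg, 6 for ABBV-075 against ABBV-744, and 1, 1 and 2 for ABBV-744 500 nM against DMSO and IFNg + ABBV-744 at 50 and 500 nM against IFNg. All genes past the thresholds were 757, 1037, 596, 86, 390 and 373 in the same order. In the main fits they were 481, 690, 421, 38, 257 and 234. With at least 10 counts in every library the member counts were 1 for ABBV-075 against DMSO (LINC00176), 2 with IFNg, 1 between the compounds, 0 for ABBV-744 50 nM against DMSO and 0 for the interaction at 500 nM. Over all genes these were 229, 398, 269, 4 and 279. With all 24 libraries in the fit the member counts were 9 for IFNg + ABBV-075, 5 between the compounds, and 1 each for ABBV-744 500 nM against DMSO and both IFNg + ABBV-744 comparisons. All genes past the thresholds were 784, 544, 57, 283 and 291. DESeq2 gave 0 for ABBV-744 50 nM against DMSO and 0 for the interaction at 500 nM, and unstranded counts gave 8 for IFNg + ABBV-075. Over all genes these were 3, 319 and 663. The GC correction gave 2 for IFNg + ABBV-744 50 nM (LINC01146 and LINC01560) and 2 for the interaction at 50 nM (LINC01481 and LINC01560), all lower and none of them called without it, and the length correction 2 for the interaction at 500 nM. Over all genes these were 52, 95 and 246. Leaving out 1 library at a time, which also changes how many members are tested, gave 7 to 10 for ABBV-075 against DMSO, 7 to 10 for IFNg + ABBV-075, 2 to 4 between the compounds, 0 to 1 for ABBV-744 50 nM, IFNg against DMSO and IFNg + ABBV-744 50 nM, 0 to 2 for both 500 nM comparisons, 0 to 3 for the interaction at 50 nM and 1 to 3 at 500 nM. For the first 3 of these, all genes past the thresholds were 493 to 690, 699 to 800 and 304 to 762. The 1 for IFNg came without IFNg replicate 1, and the 0 for ABBV-744 50 nM without DMSO replicate 3 or ABBV-744 replicate 2. Replicate numbers did not pair the libraries (same-number correlations -0.18 to 0.34, and in 0 of 9 comparisons all over 0.1). The replicate block changed no count: with it the count stayed at 8 for ABBV-075 against DMSO, 5 for IFNg + ABBV-075, 2 between the compounds, 1 for ABBV-744 50 nM and each ABBV-744 interaction, and 0 for the other comparisons. Of 198 such counts 150 stayed within 1.5 times, and of 1022 log2 fold changes of named genes 1001 kept direction and call and 3 reversed, all with the GC correction: LINC00493 in IFNg + ABBV-744 50 nM against IFNg (0.016) and in the interaction at 50 nM (0.034), and LINC00657 in the interaction at 500 nM (-0.000558). At this depth 33 of the 101 members had too few counts for the test of ABBV-075 against DMSO.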
